A study of Mus musculus with 9 samples.

Results

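Rosiglitazone was compared with vehicle in the renal cortex of db/db mice, gene by gene, from the 3 libraries of the dbR group and the 3 libraries of the dbdb group. The FPKM of all transcripts that share a gene identifier were added up, and genes whose FPKM averaged 1 or more across all 9 libraries were kept, which left 11615 of 21950 genes. Both groups were male db/db mice of the C57BL/KsJ background, homozygous for the db mutation of the leptin receptor gene Lepr and labelled type 2 diabetic. From 7 weeks of age the dbR mice received rosiglitazone by gavage at 20 mg/kg/day for 8 weeks, the dbdb mice received vehicle, and each cortex was taken at 15 weeks and gave 1 library. The control group, 3 nondiabetic db/m littermates that carry 1 db copy, entered the comparison through the shared estimate of the spread, and its levels are given beside some genes. The db mutation removes the signalling form of the receptor in every tissue, and mice with 2 such copies overeat and become obese and diabetic, so the drug was compared on that background only.

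Rosiglitazone is a thiazolidinedione that binds and activates PPARγ, a nuclear receptor that pairs with RXR and switches on genes of fatty acid uptake and storage. PPARγ is most abundant in fat, where the drug improves insulin sensitivity, while in the kidney its mRNA is found at low levels, among other places in endothelium and in the collecting duct. The kidney cortex is made up mostly of proximal tubules, with glomeruli, distal nephron, vessels and a thin interstitium between them.

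Relative depth, read from the steps between low FPKM values, ranged from 0.914 to 1.14, and mitochondrially encoded genes held between 26.9% and 32.8% of the mRNA FPKM, both limits being dbR libraries, replicate 1 and replicate 2. Proximal tubule markers summed to between 5026 and 5821 FPKM in the 6 db/db libraries. dbdb replicate 3 stood apart: its log2 levels correlated at 0.982 and 0.985 with the other dbdb libraries, against 0.991 between those and 0.993 within the dbR group. The epithelial lung mRNAs Scgb1a1 and Sftpc were at 39.5, 43.2 and 0 and 11.8, 10.6 and 0 FPKM in dbdb replicates 1, 2 and 3, and were listed at 0 in every dbR library. Sftpa1, Sftpd and Scgb3a2 had the same distribution at lower levels, and control replicate 3 also carried these mRNAs, with Scgb1a1 at 38.6 FPKM. The lung genes were looked up after the values of Scgb1a1 had been seen, and the part of such RNA in the other results was not tested.

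With all 9 libraries, 166 genes, 1.43% of those tested, passed an adjusted p of 0.05 in limma. Of these, 120 were upregulated in the dbR group (1.03% of the genes tested) and 46 were downregulated (0.396%). All 166 had dbR and dbdb libraries that did not overlap, whereas over all genes the dbR libraries lay wholly above the dbdb libraries for 10.5% and wholly below for 13.5%. At an unadjusted p under 0.05, 9.81% of the genes were higher and 9.23% were lower in the dbR group. The changes were small: the median size among the called genes was 0.58 on the log2 scale, and 15 genes changed by 1 or more, 10 upward and 5 downward. The median over all genes tested was -0.01. If mitochondrially encoded genes were left out and every library was scaled to the same sum, 162 genes were called and the split became 78 up and 84 down.

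**Figure D1:**
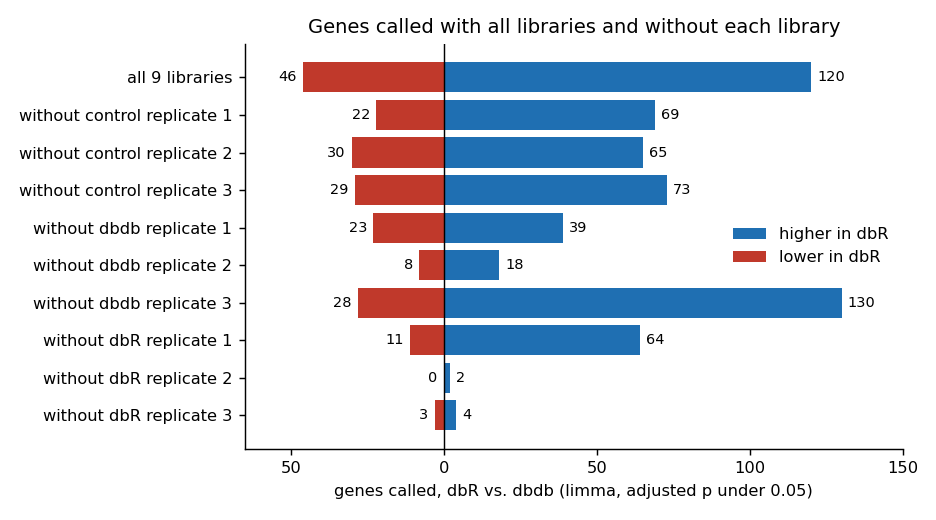
Number of genes called in dbR vs. dbdb (limma, adjusted p under 0.05) with all 9 libraries and without each library in turn. Bars to the right count genes higher in the dbR group and bars to the left count genes lower in it. Without dbR replicate 2 only 2 genes were called, without dbR replicate 3 only 7, and without dbdb replicate 3 the count was 158.

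How many genes were called depended on single libraries. Leaving out dbR replicate 2 left 2 called genes, Ecm1 and Npr3, and leaving out dbR replicate 3 left 7. Without dbdb replicate 1 or 2 there were 62 and 26, without dbR replicate 1 there were 75, and without a control library there were 91, 95 or 102. Without dbdb replicate 3, 158 genes were called. In every one of these fits all 166 genes kept the direction of their change. Of the 166, 14 were called in at least 7 of the 9 fits and 2, Ecm1 and Npr3, in all 9. The values given below are therefore read as differences between these 6 libraries, and a call of a single gene, other than those of Ecm1 and Npr3, was lost without at least 1 library.

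Ecm1 and Npr3 were the clearest genes. Ecm1 codes for a secreted glycoprotein of the extracellular matrix and lies on chromosome 3. It was measured at 30.8, 36.9 and 33.1 FPKM in the dbdb group and 81.4, 84.3 and 78.6 FPKM in the dbR group. The dbR libraries lay close together, and the lowest of them was above the highest dbdb library by more than the spread within either group. The log2 fold change was 1.28 ± 0.093 (SE, adjusted p = 0.000978), a 2.43-fold rise, and it stayed between 1.22 and 1.35 with any 1 library left out, at an adjusted p of 0.000589 to 0.0136. In the control libraries Ecm1 was at 26.8, 21.2 and 23.1 FPKM, below both db/db groups. Npr3 codes for the clearance receptor that removes natriuretic peptides from the blood. It was measured at 2.62, 2.83 and 3.01 FPKM in the dbdb group and 6.21, 6.23 and 6.14 FPKM in the dbR group, and the 3 dbR values were nearly equal and far from the dbdb values. The change of 1.11 ± 0.087 (SE, adjusted p = 0.00101) was again found in every fit, at an adjusted p of 0.0012 to 0.0136. The control libraries, at 5.35, 6.25 and 6.24 FPKM, were near the dbR level.

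The promoter windows of these genes and of Rcan1, the strongest downregulated gene with one of the motifs searched, are shown because PPARγ and RXR bind a pair of half-sites (the letters AGGTCA) in direct repeat with 1 base between them, and clock and SREBP factors bind CACGTG. The windows come from RefSeq (GRCm38.p6), run from 250 bases before to 50 after an annotated start, and are on the minus strand, for Ecm1 at chr3:95739520-95739819, for Npr3 at chr15:11907322-11907621 and for Rcan1 at chr16:92466120-92466419. Capitals mark a match to AGGTCA or CACGTG on either strand, and the other bases are in lower case.
Ecm1: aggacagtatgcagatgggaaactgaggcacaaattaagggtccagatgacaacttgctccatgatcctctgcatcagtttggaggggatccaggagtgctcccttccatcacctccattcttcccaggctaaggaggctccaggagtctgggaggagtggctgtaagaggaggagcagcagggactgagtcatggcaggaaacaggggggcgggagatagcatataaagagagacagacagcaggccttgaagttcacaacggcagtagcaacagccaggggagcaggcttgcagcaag
Npr3: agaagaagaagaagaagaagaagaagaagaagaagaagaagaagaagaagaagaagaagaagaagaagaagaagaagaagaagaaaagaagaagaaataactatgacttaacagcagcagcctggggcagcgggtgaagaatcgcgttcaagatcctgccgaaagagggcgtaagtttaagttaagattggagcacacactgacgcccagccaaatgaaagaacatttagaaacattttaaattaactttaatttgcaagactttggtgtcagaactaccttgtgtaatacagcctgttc
Rcan1: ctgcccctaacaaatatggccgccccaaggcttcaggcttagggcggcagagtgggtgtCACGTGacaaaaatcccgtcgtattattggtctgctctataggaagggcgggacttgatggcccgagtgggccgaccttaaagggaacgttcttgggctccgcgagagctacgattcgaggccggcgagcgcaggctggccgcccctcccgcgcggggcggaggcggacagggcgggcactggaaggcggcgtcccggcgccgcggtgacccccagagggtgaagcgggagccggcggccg
Neither the Ecm1 nor the Npr3 window held AGGTCA or CACGTG, and the Rcan1 window held 1 CACGTG, which begins 191 bases before the start. Another start of Rcan1 has a window without either motif. Windows were found for 85 of the 120 upregulated and 37 of the 46 downregulated genes. The direct repeat was in none of their 110 and 49 windows, and in 0.0396% of all 32851 windows. At least 1 window with CACGTG was present for 5.88% of the upregulated genes, for 18.9% of the downregulated genes (Rcan1, Dnajb9, Slc20a1, Cpeb1, Mgll, Hdac5 and Pcgf2) and for 12.1% of the genes tested. AGGTCA alone was in 12.9%, 13.5% and 15.3%. A match is a description of the sequence only, and distal elements were not searched.

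**Figure D2:**
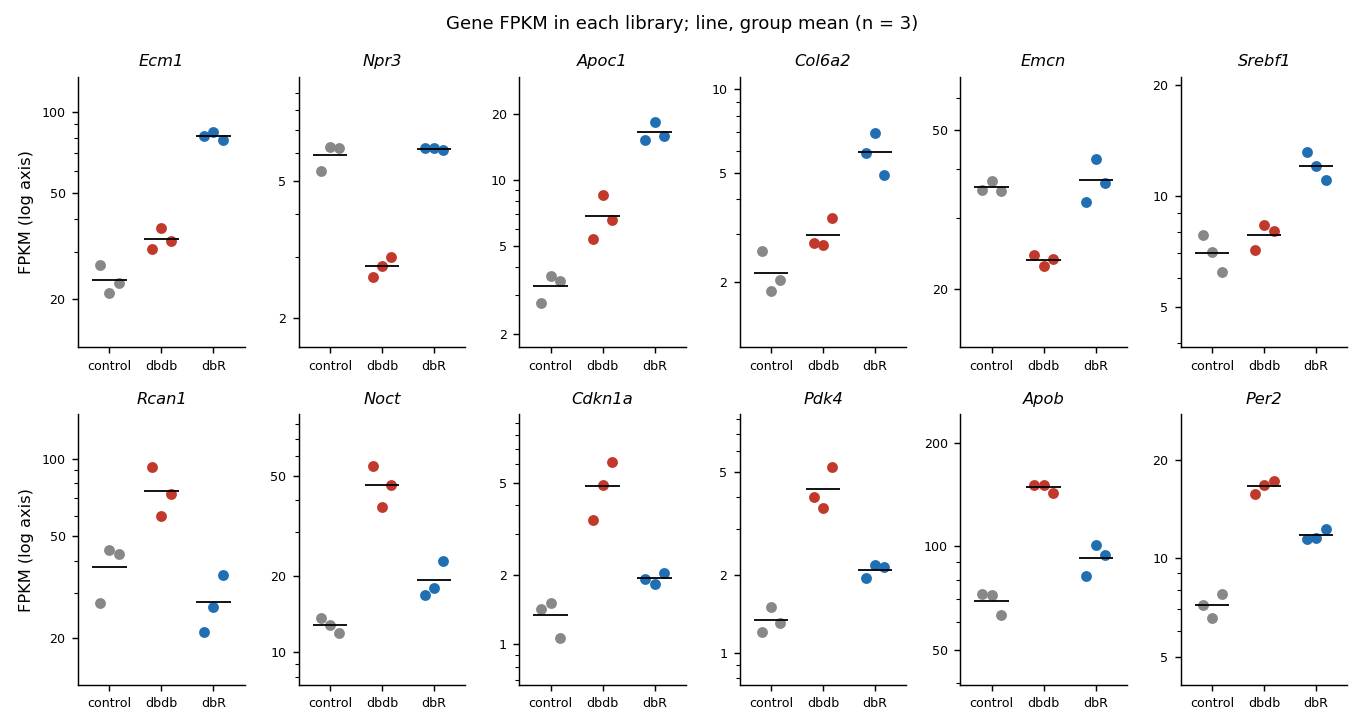
FPKM (log axis) of 6 upregulated and 6 downregulated genes in each library. Each point is 1 mouse, the line is the mean of the group (n = 3), and control libraries are shown for reference. In every panel the dbR and dbdb points do not overlap, and for Noct, Cdkn1a, Pdk4, Apob and Per2 the dbR points lie between the other groups.

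Ces1g, a carboxylesterase that hydrolyses lipid esters, had the largest rise of the called genes, from 1.51, 1.84 and 0.933 FPKM in the dbdb libraries to 4.08, 5.88 and 3.63 FPKM in the dbR libraries, with a log2 fold change of 1.62 ± 0.25 (SE, adjusted p = 0.0267). The lowest dbdb value was in replicate 3, and without that library the change was 1.36. Apoc1, an apolipoprotein of triglyceride-rich particles, was measured at 5.37, 8.61 and 6.597 FPKM in the dbdb group and 15.3, 18.5 and 15.9 FPKM in the dbR group and changed by 1.28 ± 0.16 (SE, adjusted p = 0.0181). Its dbR libraries were all above the highest dbdb library, replicate 2, and the control libraries were below both groups at 2.76, 3.67 and 3.46 FPKM. Mbl1, a mannose-binding lectin that starts the complement cascade, rose from 0.817, 1.22 and 0.829 to 2.504, 2.33 and 2.46 FPKM (log2 fold change 1.28), and Btnl9, a butyrophilin-like membrane protein, from 1.900, 2.41 and 1.499 to 5.02, 4.92 and 4.44 FPKM (log2 fold change 1.29). Both were called with an adjusted p of 0.0181. Pik3c2g, a lipid kinase, rose by 1.31 and lost its call without dbdb replicate 3 (adjusted p = 0.0767). BC089597 (1.08), Hist1h2ag (0.97), Egflam (0.95) and the cholesterol exporter Abcg1 (0.92) complete the genes with the largest rises outside the groups below. Hist1h2ag belongs to a family of nearly identical histone genes, between which Cufflinks could have divided reads.

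Among the downregulated genes, several are known to answer to stress, calcium or growth signals. Rcan1, an inhibitor of the phosphatase calcineurin, fell from 92.8, 59.9 and 72.5 FPKM in the dbdb libraries to 21.03, 26.4 and 35.3 FPKM in the dbR libraries, a log2 fold change of -1.45 ± 0.23 (SE, adjusted p = 0.0271). Noct, a phosphatase with a daily rhythm, fell from 54.7, 37.5 and 45.9 to 16.9, 17.9 and 22.97 FPKM, a change of -1.25 ± 0.14 (SE, adjusted p = 0.0141). In neither gene did the groups overlap, and the Noct call was lost in 1 of the 9 fits with a library left out. Plk3, a stress-activated kinase, had the largest change at -1.69, but its dbdb libraries were at 19.03, 10.1 and 17.8 FPKM and its dbR libraries at 3.79, 3.18 and 8.08 FPKM, so that the groups nearly met. Its call was lost without dbdb replicate 3 (adjusted p = 0.077). Cdkn1a, the cell cycle inhibitor p21, was measured at 3.46, 4.85 and 6.14 FPKM in the dbdb group and 1.93, 1.82 and 2.04 FPKM in the dbR group and changed by -1.24 ± 0.20 (SE, adjusted p = 0.0271). The dbR libraries were nearly equal, while the dbdb libraries differed among themselves by more than the gap between the groups. Cyr61, a matricellular protein induced by YAP, changed by -1.19 and Jun, a subunit of AP-1, by -0.84, and both lost their call without dbdb replicate 3 (adjusted p of 0.0734 and 0.0584).

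Apob, the structural protein of chylomicrons and VLDL, was measured at 151, 151 and 143 FPKM in the dbdb group and 81.99, 101 and 94.3 FPKM in the dbR group. It changed by -0.69 ± 0.085 (SE, adjusted p = 0.0181), with a dbR group that lay between the control libraries, at 72.8, 72.2 and 63.2 FPKM, and the dbdb libraries. Slc39a14, a zinc and iron importer, changed by -0.77, Psat1, an enzyme of serine synthesis, by -0.71, and the galectin Lgals4 by -0.86, and all 3 lost their call without dbdb replicate 3. Fam25c (-0.83), Gm10033 (-0.82) and Cxx1c (-0.62) also fell. Of the called genes with the highest levels, Ccnd1, cyclin D1, was at 183, 190.2 and 235 FPKM in the dbdb group and 129.5, 127 and 157 FPKM in the dbR group and changed by -0.56 ± 0.11 (SE, adjusted p = 0.0429). Ccnd1 was called in none of the 9 fits that left out a library. Ccnd2, its relative, rose by 0.56 ± 0.11 (SE, adjusted p = 0.0466). Of 17 cell cycle genes tested these 2 and Cdkn1a were called, where 1.43% of all genes were. Nus1, a subunit of the enzyme that makes dolichol, changed by -0.32 and lost its call without dbdb replicate 3.

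Genes of the extracellular matrix were the group with the most calls. Of 41 listed genes 35 were tested, and 6 were called, all upward, where 1.03% of all genes were. At an unadjusted p under 0.05, 20 were higher, as were 9.81% of all genes, and 2, Lama5 and Thbs1, were lower, and the dbR libraries lay wholly above the dbdb libraries for 20 (10.5% of all genes did). The median log2 fold change of the list was 0.43, against -0.01 over all genes tested, and it was 0.36 without dbdb replicate 3. Beside Ecm1 the called members were the collagen VI chains Col6a1 (0.89 ± 0.16 SE, adjusted p = 0.0375) and Col6a2 (0.96 ± 0.16 SE, adjusted p = 0.0287), the basement membrane protein Nid1 (0.77 ± 0.11 SE, adjusted p = 0.0233), the microfibril protein Fbn1 (0.75 ± 0.14 SE, adjusted p = 0.0375) and the proteoglycan Bgn (0.73 ± 0.13 SE, adjusted p = 0.0336). Bgn was measured at 29.4, 30.4 and 39.5 FPKM in the dbdb group and 51.2, 63.1 and 49.96 FPKM in the dbR group, and Nid1 at 9.53, 8.81 and 10.5 FPKM in the dbdb group and 16.2, 19.3 and 14.3 FPKM in the dbR group. In both genes dbR replicate 2 was the highest library and dbdb replicate 3 the highest of its group. The fibrillar collagens Col1a1, Col1a2 and Col3a1 did not pass, with log2 fold changes of 0.67, 0.75 and 0.76 at adjusted p of 0.239, 0.14 and 0.149. The fibronectin gene Fn1 differed by 0.47 (adjusted p = 0.28).

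Fibroblast markers were higher too, below the threshold. The fibroblast markers tested, 5 of 7, had no call, 4 of them were higher at an unadjusted p under 0.05 (9.81% of all genes were), and their median was 0.75. Their summed FPKM was 20.1, 21.7 and 31.8 in the dbdb group and 34.6, 46.1 and 35.01 in the dbR group, so that dbdb replicate 3 came near the dbR range. Pdgfra, the receptor that marks fibroblasts, missed the threshold with all libraries (0.75 ± 0.16 SE, adjusted p = 0.0517) and passed it without dbdb replicate 3 (0.92, adjusted p = 0.0299). Pdgfrb, its relative on pericytes and mesangial cells, was called at 0.69 ± 0.094 (SE, adjusted p = 0.0217), with 4.28, 4.31 and 5.16 FPKM in the dbdb group and 7.18, 8.104 and 7.01 FPKM in the dbR group. The other 6 tested markers of smooth muscle, mesangium and pericytes were not called. Over these 7 genes 5 were higher and 2, Acta2 (-0.072) and Myh11 (-0.18), lower, 2 were higher at an unadjusted p under 0.05 (9.81% of all genes were), and the median was 0.13, or 0.35 without dbdb replicate 3. In whole cortex, more cells of a type and more RNA per cell cannot be told apart. The chemokine Cxcl12 (0.69), the elastic fibre protein Emilin1 (0.68), the heparan sulphate proteoglycan Gpc3 (0.65) and the sphingosine phosphate receptor S1pr3 (0.86) were also called upward, and are named here after their values were seen.

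Endothelial genes were higher as well. All 7 endothelial markers were higher in the dbR group, 3 were called, where 1.03% of all genes were called upward, and 5 passed an unadjusted p of 0.05 (9.81% of all genes did so upward). The median was 0.35 and, without dbdb replicate 3, 0.26. Emcn, an endothelial sialomucin, was measured at 24.3, 22.8 and 23.7 FPKM in the dbdb group and 32.96, 42.4 and 36.9 FPKM in the dbR group and changed by 0.66 ± 0.084 (SE, adjusted p = 0.0181). The dbdb libraries were nearly equal, and the dbR libraries straddled the control level of 35.4, 37.3 and 35.2 FPKM. Kdr, the main VEGF receptor, changed by 0.52 ± 0.085 (SE, adjusted p = 0.0271), and Pecam1, which joins endothelial cells, by 0.51 ± 0.10 (SE, adjusted p = 0.0435). Without dbdb replicate 3 Emcn and Kdr stayed called and Pecam1 did not (adjusted p = 0.0767). Of 17 tested genes of angiogenesis and endothelial signalling, 3 were called, all upward as were 1.03% of all genes: Kdr again, the vessel growth factor Angpt1 (0.50 ± 0.079 SE, adjusted p = 0.0271) and its receptor Tek (0.42 ± 0.078 SE, adjusted p = 0.0399). The call of Tek was lost in each fit that left out a library. Outside the lists, the endothelial transcription factors Erg (0.55) and Ets1 (0.51), Gpihbp1, which holds lipoprotein lipase on capillaries (0.80), Esm1 (0.85), Plxnd1 (0.47) and Nrp2 (0.57) were called upward, and were picked out here after their values were seen. Of these, Erg, Ets1 and Plxnd1 lost their call without dbdb replicate 3 (adjusted p of 0.0767, 0.0613 and 0.0593). The summed endothelial markers were at 151, 152 and 136 FPKM in the dbdb group, 181, 201 and 181 in the dbR group and 163, 183 and 165 in the control libraries, and the 3 db/db libraries on vehicle were below every dbR library. Podocyte markers did not follow, with 7 tested, none called, and a median of -0.12.

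Few known lipid targets of the PPAR family passed the test. Of 42 listed genes 34 were tested, and 1 was called upward and 1 downward, where 1.03% and 0.396% of all genes were. At an unadjusted p under 0.05, 4 were higher and 8 lower, where 9.81% and 9.23% of all genes were, and the list had a median of -0.10. Fabp4, a fatty acid carrier of fat cells, endothelium and macrophages and a classical PPARγ target, was measured at 32.9, 21.9 and 22.8 FPKM in the dbdb group and 45.8, 45.8 and 43.1 FPKM in the dbR group and rose by 0.82 ± 0.15 (SE, adjusted p = 0.0399). Its call was lost without dbdb replicate 3 (adjusted p = 0.0697), and the control libraries were at 30.6, 36.6 and 41.6 FPKM. Of the 9 other listed markers of fat cells, Lipe and Car3, which other cells also express, reached the level for a test, with log2 fold changes of -0.20 and -0.28 that did not pass (adjusted p of 0.319 and 0.32). The remaining 7 were near 0 in the db/db libraries. Adipoq and Plin1 were listed at 0 in all dbdb libraries and reached at most 0.515 and 0.0732 FPKM in the dbR libraries, and no library exceeded 0.158 FPKM for Cidec among those of db/db mice. Pdk4, which blocks the entry of pyruvate into the citric acid cycle, fell from 3.99, 3.64 and 5.21 to 1.95, 2.18 and 2.14 FPKM, a change of -0.98 ± 0.15 (SE, adjusted p = 0.0246). Angptl4, an inhibitor of lipoprotein lipase, differed by -1.38 ± 0.35 (SE, adjusted p = 0.0764) with 21.2, 23.6 and 33.2 FPKM in the dbdb group and 9.37, 6.104 and 16.2 FPKM in the dbR group and did not pass. Lpl (0.44, adjusted p = 0.0874) and Scd1 (0.73, adjusted p = 0.121) did not pass either.

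Pparg itself was below the level needed for a test, at 0.447, 0.259 and 0.471 FPKM in the dbdb libraries, 0.583, 0.673 and 1.200 FPKM in the dbR libraries and 0.812, 2.26 and 0.563 FPKM in the control libraries. Ppara, the form that governs fatty acid oxidation and is abundant in the proximal tubule, was at 68.3, 67.7 and 56.6 FPKM in the dbdb group and 50.3, 52.6 and 52.00 FPKM in the dbR group and differed by -0.31 ± 0.081 (SE, adjusted p = 0.0859). Without dbdb replicate 3, its lowest dbdb library, the difference was -0.40 and passed the test (adjusted p = 0.0367). None of 20 genes of fatty acid oxidation was called, with 1 higher and 5 lower at an unadjusted p under 0.05 (9.81% and 9.23% of all genes were), Cpt2 (-0.30) and Eci1 (-0.31) having the smallest p. Among 18 lipogenic genes, Srebf1, the transcription factor that drives lipid synthesis, was measured at 7.12, 8.37 and 8.02 FPKM in the dbdb group and 13.1, 12.1 and 11.1 FPKM in the dbR group and rose by 0.62 ± 0.10 (SE, adjusted p = 0.0285), and Lpin1, which makes diacylglycerol, changed by -0.62 ± 0.11 (SE, adjusted p = 0.0399). Among 22 genes of cholesterol synthesis and uptake, Insig1, a brake on SREBP, rose by 0.65 ± 0.12 (SE, adjusted p = 0.0429). Its call was lost without dbdb replicate 3 (adjusted p = 0.0697), and the enzymes of the pathway were not called.

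Glucocorticoid-responsive genes had the lowest median of the lists with at least 5 genes tested, -0.39 over 14 genes, and -0.40 without dbdb replicate 3. A single gene, 1 of the 14, was called, where 0.396% of all genes were called downward. At an unadjusted p under 0.05, 9 were lower, as were 9.23% of all genes, and 1, the receptor gene Nr3c1 (0.17), was higher. The called gene was Klf9, a transcription factor induced by glucocorticoids and thyroid hormone. It was at 73.8, 72.4 and 77.7 FPKM in the dbdb group and 60.02, 53.3 and 58.3 FPKM in the dbR group and changed by -0.38 ± 0.068 (SE, adjusted p = 0.0349), a call lost without dbdb replicate 3 (adjusted p = 0.0617). Fkbp5, a chaperone that dampens the receptor, was at 57.6, 73.9 and 69.1 FPKM in the dbdb group and 43.5, 41.7 and 42.5 FPKM in the dbR group and, although the groups did not overlap, did not pass (adjusted p = 0.0761). Sgk1, a kinase that raises sodium transport, overlapped between the groups, with 176, 165 and 297 FPKM in the dbdb group and 78.6, 95.4 and 213 FPKM in the dbR group and an adjusted p of 0.227. The metallothioneins Mt1 and Mt2 differed by -0.35 and -0.40 and did not pass.

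Among clock and immediate-early genes 1 each was called. Per2, a repressor of the circadian clock, was measured at 15.8, 16.8 and 17.3 FPKM in the dbdb group and 11.4, 11.5 and 12.3 FPKM in the dbR group and changed by -0.49 ± 0.076 (SE, adjusted p = 0.0267). It was the only one of 20 clock genes called, where 0.396% of all genes were called downward, with 5 lower and none higher at an unadjusted p under 0.05 (9.23% and 9.81% of all genes were), and the median of the list was -0.11. Per1 was at 43.4, 35.7 and 35.96 FPKM in the dbdb group and 28.4, 21.7 and 29.98 FPKM in the dbR group and differed by -0.53 ± 0.16 (SE, adjusted p = 0.114). The hour of tissue collection was not given in the sources used here. Jun was the only one of 17 immediate-early genes called, where again 0.396% of all genes were, with 7 lower and none higher at that p, against the same shares of all genes, and a median of -0.29. Without dbdb replicate 3 none was called, 4 were lower at that p, where 7.96% of all genes were, and the median was -0.17. Among the 20 genes of the response to endoplasmic reticulum stress, the chaperone Dnajb9 was called (-0.40 ± 0.063 SE, adjusted p = 0.0271), and 6 were lower and 1 higher at an unadjusted p under 0.05 (9.23% and 9.81% of all genes were). The transcription factors Foxo1 (-0.37) and Foxo3 (-0.36), which insulin signalling keeps out of the nucleus, and the survival factor Mcl1 (-0.43) were called downward as well, and are named here after their values were seen. Gluconeogenic and glucose transport genes had no call among 13, Slc5a1, a glucose carrier of the late proximal tubule, being higher (0.33, adjusted p = 0.0622) and Slc2a2 lower (-0.31, adjusted p = 0.103).

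Several transport and hormone genes of the nephron changed. Of 14 tested renin-angiotensin and natriuretic peptide genes, Npr3, Mme and Gucy1a3 were called, all upward, the direction in which 1.03% of all genes were called. Mme, the peptidase neprilysin of the proximal tubule brush border, was at 33.95, 33.6 and 34.98 FPKM in the dbdb group and 43.8, 43.4 and 43.5 FPKM in the dbR group, a change of 0.35 ± 0.050 (SE, adjusted p = 0.0236) that is small but well beyond the spread within either group. Gucy1a3, a subunit of the nitric oxide receptor, rose by 0.52 ± 0.10 (SE, adjusted p = 0.0463). Slc7a13, an amino acid transporter of the proximal tubule, rose from 55.4, 60.4 and 61.7 to 101, 115 and 156 FPKM, a change of 1.04 ± 0.16 (SE, adjusted p = 0.0271), and remained far below the control libraries at 448, 398 and 566 FPKM. Fxyd4, which tunes the sodium pump of the collecting duct, rose by 0.64 ± 0.11 (SE, adjusted p = 0.0375), the thick limb claudin Cldn10 by 0.38 ± 0.078 (SE, adjusted p = 0.0482), and Atp6v1g3, a proton pump subunit of intercalated cells, by 0.52 ± 0.075 (SE, adjusted p = 0.0246). The other markers of these segments were not called, and their summed levels overlapped between the groups for the collecting duct and the intercalated cells. The thick limb markers summed to 618, 638 and 895 FPKM in the dbdb group and 873, 815 and 746 FPKM in the dbR group. Gucy1a3, Fxyd4 and Cldn10 lost their calls without dbdb replicate 3.

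Among 22 cytochrome P450 and glucuronidation genes, Cyp2d12 (1.03 ± 0.15 SE, adjusted p = 0.0246) and Ugt3a1 (0.45 ± 0.089 SE, adjusted p = 0.0463) were called upward, where 1.03% of all genes were, and 8 were higher and 2 lower at an unadjusted p under 0.05 (9.81% and 9.23% of all genes were). Cyp2c44, an epoxygenase of arachidonic acid, was at 34.2, 48.1 and 32.3 FPKM in the dbdb group and 65.3, 72.4 and 77.6 FPKM in the dbR group and rose by 0.93 ± 0.14 (SE, adjusted p = 0.0271). These families hold close copies between which reads could be divided, and the split is not known from FPKM. Nqo1, a quinone reductase, was the only called one of 25 listed antioxidant genes (0.41 ± 0.075 SE, adjusted p = 0.0399), and the drug exporter Abcb1b the only one of 21 listed organic ion transporters (0.60 ± 0.10 SE, adjusted p = 0.0333), a call lost without dbdb replicate 3. Outside these lists, Prdx4 (0.51), Gpx8 (0.66), Gstm2 (0.58) and Gstk1 (0.49), of the peroxiredoxin, glutathione peroxidase and glutathione transferase families, and the organic anion transporters Slco2b1 (0.66) and Slc22a26 (0.82) were also called upward, most of them named after their values were seen. Other called genes of high level were BC021785 (0.41), the glutathione transferase Gstt1 (0.53), the nucleolar protein Npm1 (0.52), and the translation genes Eif4b (0.36) and Naca (0.41).

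Ribosomal protein genes were higher by a small amount, nearly all below the threshold. All 79 were tested, 78 were higher in the dbR group, 58 passed an unadjusted p of 0.05 upward where 9.81% of all genes did, and 1, Rpl22, was called. Without dbdb replicate 3, 36 did, where 8.98% of all genes did, and the median was 0.24. Rpl22 was at 285, 269 and 252 FPKM in the dbdb group and 338, 359 and 374 FPKM in the dbR group and changed by 0.41 ± 0.068 (SE, adjusted p = 0.0287). With all libraries the median was 0.29, and it was 0.23 with mitochondrially encoded genes left out and 0.19 after quantile normalization. The sum over the list was 37840.5, 33103 and 30921 FPKM in the dbdb group and 36496, 43694 and 43125 FPKM in the dbR group, so that dbR replicate 1 lay below dbdb replicate 1. The dbR libraries lay wholly above the dbdb libraries for 28 of the 79, where they did so for 10.5% of all genes. The nuclear-encoded genes of the respiratory chain had a median of 0.07 over 74 genes with no call, and the 13 mitochondrially encoded genes had no call and none with an unadjusted p under 0.05.

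**Figure D3:**
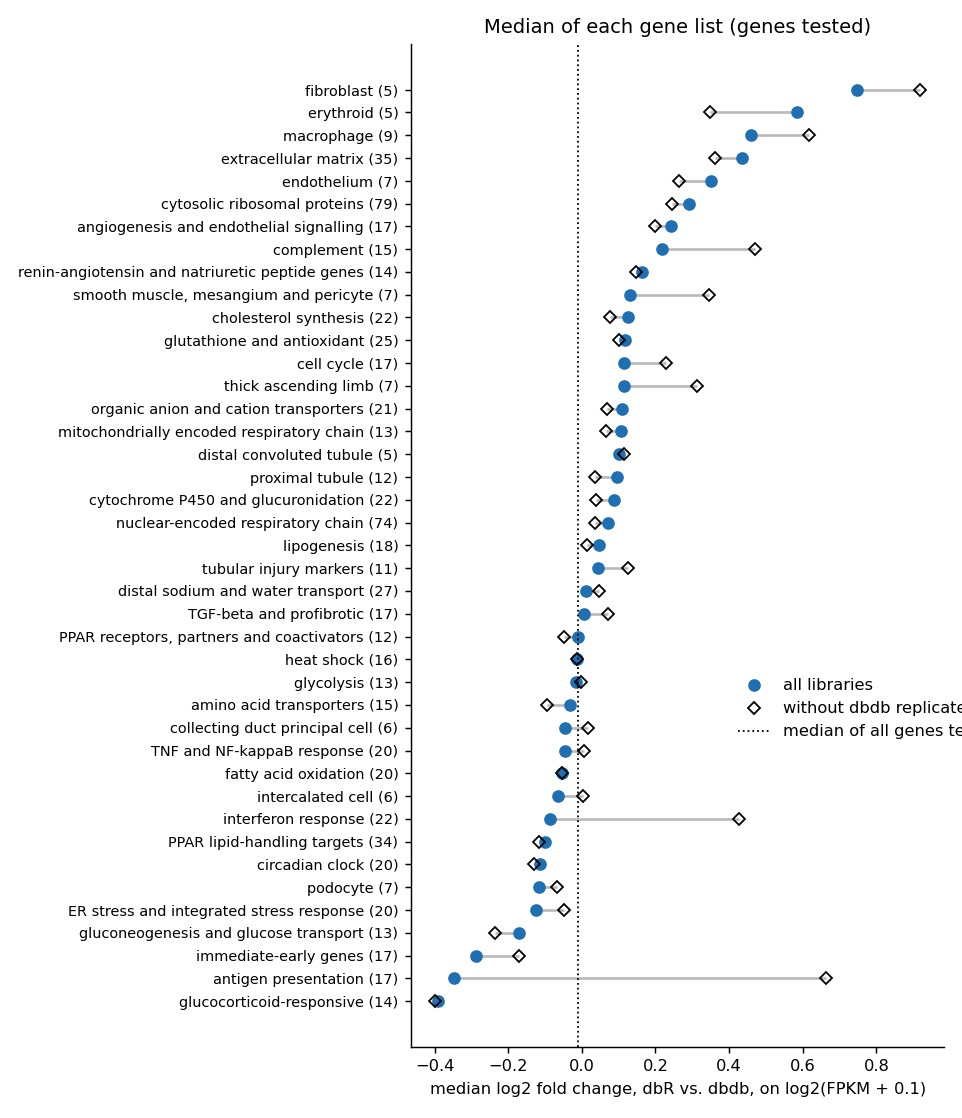
Median log2 fold change of each gene list with at least 5 genes tested, dbR vs. dbdb, with all libraries (filled circles) and without dbdb replicate 3 (open diamonds), on the log2(FPKM + 0.1) scale. The number of genes tested is in brackets, and the dotted line is the median over all genes tested, -0.01. Antigen presentation moves from -0.35 to 0.66 and interferon response from -0.09 to 0.43, and most other lists stay near their place.

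The direction of antigen presentation genes depended on dbdb replicate 3. Cd74, the invariant chain of MHC class II, was at 57.6, 77.7 and 872 FPKM in the dbdb group and 74.3, 89.3 and 148 FPKM in the dbR group. H2-Ab1, a class II chain, was at 4.47, 6.76 and 100.1 FPKM in the dbdb group and 6.31, 8.36 and 17.8 FPKM in the dbR group, and the immunoproteasome subunit Psmb8 at 2.103, 3.65 and 54.2 FPKM in the dbdb group and 4.99, 5.49 and 5.32 FPKM in the dbR group. In each, dbdb replicate 3 was far above the other 5 libraries and dbdb replicate 1 was below every dbR library. B2m, the light chain of MHC class I, was at 270.4, 266 and 1142 FPKM in the dbdb group and 271, 396 and 454 FPKM in the dbR group. With all libraries 16 of the 17 tested genes were lower in the dbR group, with a median of -0.35, and without dbdb replicate 3 the median was 0.66. None of the 17 was called or passed an unadjusted p of 0.05 with all libraries, and without dbdb replicate 3 none was called, 7 were higher at an unadjusted p under 0.05, where 8.98% of all genes were, and 11 had dbR libraries wholly above the dbdb libraries, where 15.5% of all genes did. The direction of this list thus turned on 1 mouse.

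Interferon-induced genes behaved in the same way, with a median of -0.09 over 22 genes that became 0.43 without dbdb replicate 3, and with 3 genes higher at an unadjusted p under 0.05 (9.81% of all genes were) that became 11 (8.98%). The guanylate-binding protein gene Gbp2 was at 1.36, 1.61 and 23.4 FPKM in the dbdb group and 2.501, 3.65 and 4.76 FPKM in the dbR group. In this list 2 members were called without dbdb replicate 3, both upward, the interferon regulatory factor gene Irf1 (0.90, adjusted p = 0.0434) and Ifitm3 (0.76, adjusted p = 0.0355). The antiviral gene Rsad2 went the other way: it was called with all libraries (0.63 ± 0.12 SE, adjusted p = 0.0399), with 7.702, 7.58 and 7.27 FPKM in the dbdb group and 11.4, 12.4 and 11.3 FPKM in the dbR group, and was not raised in dbdb replicate 3. Over all genes tested, leaving out dbdb replicate 3 moved 18 log2 fold changes by more than 1, and 14 of these because that library was high.

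**Figure D4:**
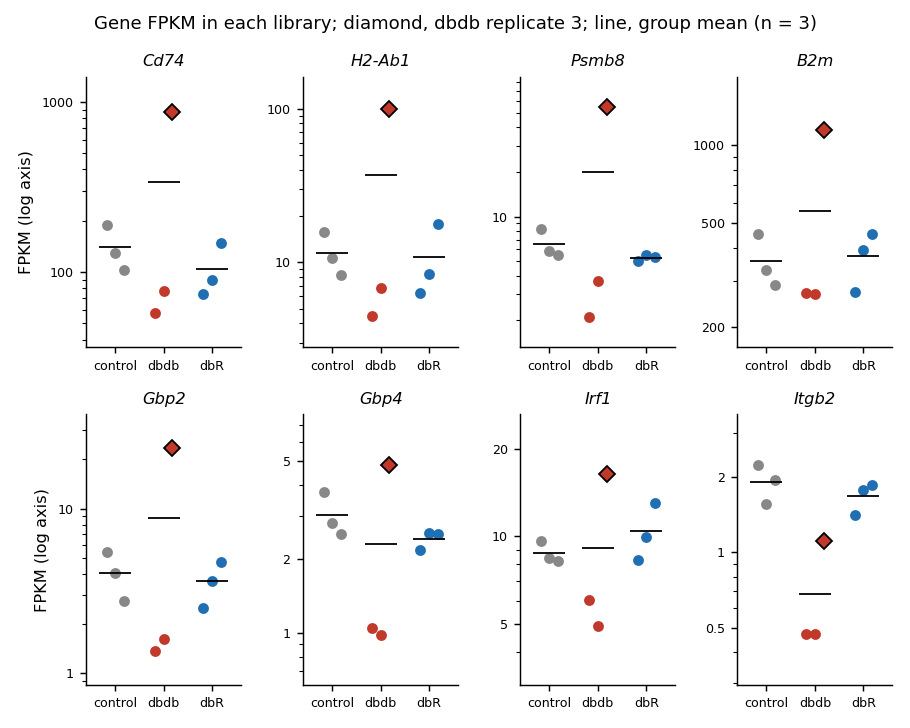
FPKM (log axis) of genes of antigen presentation, interferon response and leukocytes in each library, with dbdb replicate 3 as a diamond and group means as lines (n = 3). dbdb replicate 3 is the highest of the 9 libraries for every gene but Itgb2, while the other dbdb libraries are at or near the bottom.

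Without dbdb replicate 3, 158 genes (1.36%) were called, 130 upward (1.12%) and 28 downward (0.241%), and at an unadjusted p under 0.05, 8.98% were higher and 7.96% lower. Groups without overlap were found upward for 15.5% and downward for 19.9% of all genes. Of the 166 genes, 93 were called in both fits, 76 upward and 17 downward, and 73 lost the call. The lost genes include, of those named above without that remark, Foxo3, Mcl1, Gstk1, Gstt1, Npm1, Naca and Rsad2, and, of those with CACGTG, Slc20a1, Cpeb1, Mgll, Hdac5 and Pcgf2. The lost genes all kept their sign and an unadjusted p under 0.05, with adjusted p up to 0.0955. None of the 166 moved by more than 0.5 on the log2 scale, and 1 moved by more than 0.25. Another 65 genes were called only without it, 54 upward and 11 downward, 61 of which had an unadjusted p under 0.05 with all libraries. Of these 65, 17 moved by more than 0.25 and 2, Gbp4 and Irf1, by more than 0.5.

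**Figure D5:**
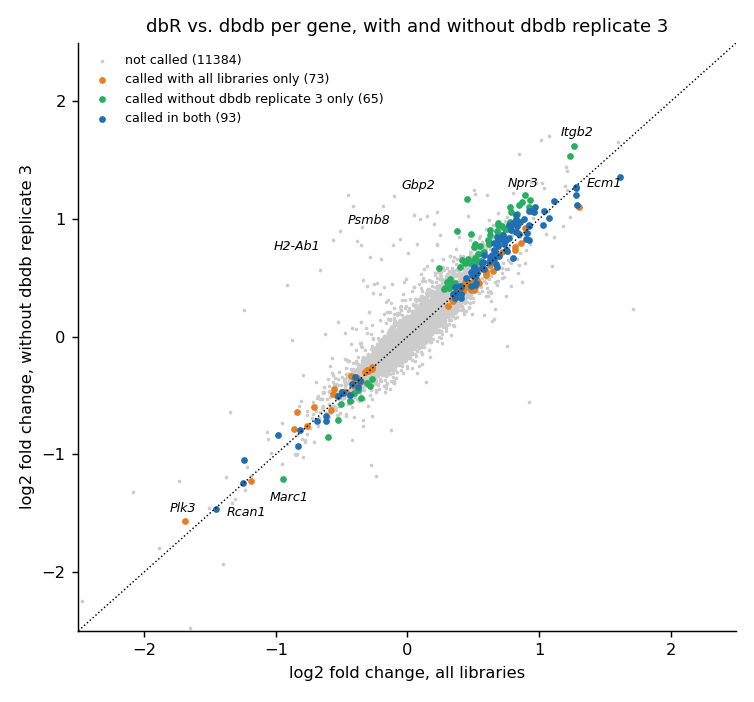
Log2 fold change of each gene in dbR vs. dbdb with all libraries (x axis) and without dbdb replicate 3 (y axis), with the calls of both fits in colour and the line of equal values dotted. The 93 genes called in both fits lie near the line, and grey points above it are genes that were high in dbdb replicate 3. The axes leave out 4 genes.

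The genes called upward only without dbdb replicate 3 included several of leukocytes. Itgb2, the beta chain of leukocyte integrins, was at 0.472, 0.473 and 1.11 FPKM in the dbdb group and 1.41, 1.77 and 1.86 FPKM in the dbR group, with a log2 fold change of 1.63 without that library (adjusted p = 0.0191) against 1.27 with it (adjusted p = 0.062). Cybb, the oxidase of phagocytes, rose by 1.12, the leukocyte antigen Cd52 by 1.15, the chemokine Ccl6 by 1.06 and the interferon-induced Gbp4 by 1.17 in the fit without it. The macrophage markers had a median of 0.46 with all libraries and 0.62 without dbdb replicate 3, and all 9 were higher, 5 at an unadjusted p under 0.05 with all libraries and 8 without it, where 9.81% and 8.98% of all genes were, but none was called in either fit. Their sums were 32.1, 39.8 and 55.01 FPKM in the dbdb group and 46.04, 54.96 and 59.6 FPKM in the dbR group, dbdb replicate 3 being within the dbR range. The control libraries, at 80.6, 64.9 and 71.99 FPKM, were higher than all 6. Lymphocyte markers were near 0, with sums of 1.01, 2.402 and 1.84 and 2.83, 3.77 and 3.06 FPKM. Beside these, Fbln5, which builds elastic fibres, rose by 1.16, the growth factor Hgf by 1.11, the cytoskeletal Pdlim1 by 1.20, the potassium channel Kcnd3 by 1.11 and Hist1h2bn by 1.53. The median of 15 complement genes also depended on this library and went from 0.22 with it to 0.47 without it.

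Downward, 11 genes were called only without dbdb replicate 3. Glud1, which releases ammonia from glutamate, was at 323, 311 and 269 FPKM in the dbdb group and 242, 215 and 239 FPKM in the dbR group, and its difference of -0.37 (adjusted p = 0.0653) became -0.45 (adjusted p = 0.0389). Slc38a3, the glutamine importer that feeds renal ammonia production, differed by -0.42 in the fit without that library. Upp2 (-0.85), Maob (-0.71), Tkfc (-0.48), Pnpla7 (-0.52), Gpc1 (-0.54), Baz1a (-0.58), Marc1 (-1.21) and Rnf25 (-0.36) were the others of this kind beside Ppara. In all 11 genes dbdb replicate 3 was the lowest dbdb library. Among the genes whose call was lost without it were Olfml1 (0.90), Sema6d (0.86) and Slc22a26 (0.82), the last an organic anion transporter at 0.569, 0.602 and 0.707 and 1.03, 1.17 and 1.37 FPKM in dbdb and dbR and at 11.6, 9.12 and 13.8 FPKM in the control libraries.

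The genes that the study discusses by name were not called, or were too low for a test. Ctgf, a profibrotic matricellular protein, was at 45.6, 31.1 and 51.8 FPKM in the dbdb group and 29.9, 30.6 and 28.6 FPKM in the dbR group and differed by -0.50 ± 0.16 (SE, adjusted p = 0.144), without overlap between the groups. Klf10 (-0.66, adjusted p = 0.308), Klf11 (-0.63, adjusted p = 0.103), Klf13 (-0.35, adjusted p = 0.0952) and Hbegf (-0.68, adjusted p = 0.113) were lower and did not pass. Sphk1 differed by 0.036 (adjusted p = 0.946). Gadd45b was under the level for a test, at 1.44, 1.16 and 1.44 FPKM in the dbdb group and 0.921, 0.871 and 1.19 FPKM in the dbR group, and so was Grem1, a BMP antagonist, at 1.13, 0.119 and 0.368 and 0.163, 0.0758 and 0.222 FPKM. For the genes of the marker proteins, the mRNA of Cdh1, E-cadherin, differed by -0.074, of Nphs1, nephrin, by -0.12 and of Vim, vimentin, by -0.016, with adjusted p of 0.572, 0.714 and 0.974. The study measured these as protein, by western blot, and reports that rosiglitazone reversed their changes in db/db mice. The mRNA values here do not measure protein. Lepr summed over its transcripts was at 0.652, 0.331 and 0.304 FPKM in the dbdb libraries, 0.512, 0.3904 and 0.335 FPKM in the dbR libraries and 1.19, 1.05 and 1.23 FPKM in the control libraries, too low for a test.

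The remaining lists had at most 1 called gene each. The amino acid transporters (Slc7a13), the tubular injury markers (Cdkn1a) and the TGF-beta genes (Cyr61) had 1 each, all named above. Glycolysis, heat shock and the TNF and NF-kappaB response had none, and their smallest p values belonged to Pgam1 (-0.22, adjusted p = 0.0696), Hspb1 (-0.45, adjusted p = 0.0755) and Cxcl10 (-0.96, adjusted p = 0.0622). The proximal and distal convoluted tubule markers had no call, the distal marker Calb1, a calcium-binding protein, being at 158, 172 and 238 FPKM in the dbdb group and 113, 140.2 and 119 FPKM in the dbR group (adjusted p = 0.0662). Erythroid, neutrophil, muscle, brown fat, adrenal and medullary markers had no call either.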

How the data were processed

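Renal cortex RNA of 9 mice was depleted of ribosomal RNA and sequenced, 1 library per mouse. The authors aligned the reads with TopHat2 (2.0.9) to the mouse genome (GRCm38.p2), assembled transcripts with Scripture and Cufflinks (2.1.1), and deposited the FPKM of each transcript, which Cufflinks divides between transcripts that share reads. Read counts were not used, so no count test was run. FPKM were added per gene, and log2(FPKM + 0.1) of the 11615 genes whose FPKM averaged 1 or more was fitted in limma (3.58.1, R 4.3.3) as a single model of all groups with a variance trend. The contrast dbR minus dbdb was tested two-sided with Benjamini-Hochberg adjustment over all 11615 genes, and genes were called at an adjusted p under 0.05. Fold changes on this scale understate those of low genes. The fit was tested on simulated data. Deposited lncRNA values were not used.

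The 12 processing alternatives and the fit without each library were run. Relative depth is the inverse of the most frequent ratio between 2 libraries of the low FPKM of genes with 1 transcript. Gene lists were written by hand, and members and lists were chosen with earlier results of these data known. The text names the 15 genes that rose and the 15 that fell most, the 10 called genes of highest FPKM, up to 10 per direction called only without dbdb replicate 3, 10 whose call was lost without it, called list members or, in a list without any, up to 4 with the smallest p, and the genes that the study names, of which some are not reported here. Gene symbols that a spreadsheet had turned into dates were restored from the Ensembl identifier. Promoter windows are those of RefSeq on GRCm38.p6, whose chromosome coordinates are those of GRCm38. Other calculations used python 3.11.15, numpy 2.4.6 and pandas 2.3.3, and figures matplotlib 3.10.9.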

Additional observations from a re-analysis of the deposited data

How the results depend on the processing

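Beside the 166 genes called, 108 were called among 14537 genes that averaged 0.1 FPKM or more, 31 of 17614 with no filter, 280 after quantile normalization, 72 in a fit to the 6 dbR and dbdb libraries, 449 with library weights, 94 of 11337 with the highest transcript of each gene, 28 with the replicate number as a block, and between 162 and 188 under the other processing settings. Without 1 library the count lay between 2 and 158, genes with an unadjusted p under 0.05 between 1505 and 2338, and genes without overlap between 2791 and 4710. The median of all genes went from -0.01 to -0.073 with mitochondrially encoded genes left out, and in all settings each of the 166 genes that was fitted kept its direction. Without 1 library the log2 fold change of B2m lay between -0.61 and 0.45, of Cd74 between -1.39 and 0.57, of Gbp2 between -0.81 and 1.20, of H2-Ab1 between -1.41 and 0.82 and of Psmb8 between -1.41 and 0.90, the highest each time without dbdb replicate 3, and Gbp2 was also above 0 without dbR replicate 1. With library weights B2m (0.081), Gbp2 (0.42) and H2-Ab1 (0.080) were higher. The small differences of Acta2 (-0.23 to 0.098 without 1 library), Sphk1 (-0.040 by quantile normalization, -0.023 without mitochondrially encoded genes, -0.12 to 0.17 without 1 library) and Vim (0.0082 by quantile normalization, 0.078 with the highest transcript, -0.19 to 0.086 without 1 library) also changed sign. Same-numbered dbdb and dbR libraries did not deviate together (correlations of -0.0084, -0.11 and 0.061), and the main fit used no pairing. Whether mice of the same number were handled together is not given by the labels and was not tested. Read counts were not used, so the depth behind a single FPKM is not known.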

Other observations

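C4b, a complement component, was at 4.54, 21.7 and 49.4 FPKM in the dbdb group and 2.91, 3.74 and 5.59 FPKM in the dbR group, so that dbdb replicates 2 and 3 were high and dbdb replicate 1 was inside the dbR range, and it did not pass the test (adjusted p = 0.144). C3, the central component of the same cascade, was at 20.5, 28.6 and 30.4 FPKM in the dbdb group and 47.9, 39.7 and 48.7 FPKM in the dbR group and at 7.47, 4.74 and 4.46 FPKM in the control libraries, with no overlap between the db/db groups and an adjusted p of 0.0786. Ugt1a2, a glucuronidating enzyme, was at 258, 156 and 121 FPKM in the dbdb group and 339, 388 and 218 FPKM in the dbR group, against 5.73, 4.11 and 2.18 FPKM in the control libraries, and did not pass (adjusted p = 0.243).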
